A study of Mus musculus with 20 samples.

Results

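Memory and quiescence transcription factors are described here in CD44+CD8+ T cells from mouse lung carrying 4T1 tumours, a mammary carcinoma line. The 8 members were Tcf7, Lef1, Bach2, Foxp1, Foxo1, Id3, Satb1 and Klf3. For each, the probe set listed with that symbol alone and whose mean over all 20 arrays was highest stood for the gene, and 7 of the 8 were measured, among 17097 genes. For Tcf7, the gene of the factor TCF-1, no probe set in the annotation used carried its symbol alone, and it is not analysed here.

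The arrays fell into 4 groups, all of CD44+CD8+ T cells purified from tumour-bearing lung after intranasal treatment. SD-101+anti-PD-1+a-CD4, hereafter the a-CD4 group, had 4 arrays, SD-101+anti-PD-1 had 5, SD-101 had 6 and Saline-CTRL, the control given saline, had 5. SD-101 activates TLR9, which senses microbial DNA inside immune cells, and anti-PD-1 blocks PD-1, an inhibitory receptor on T cells. The labels give no strain or age, do not say what a-CD4 did to CD4+ cells, and do not state whether the numbered samples of a group were separate animals or pools. The p-values therefore measure the spread between these samples, which may be technical. Values are log2 intensities per probe set as deposited, and the number of arrays limits their precision.

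These factors hold T cells in a resting or memory state, and most decline when a T cell is driven to an effector fate. Lef1 and Tcf7 encode related DNA-binding proteins that sustain naive and memory CD8+ T cells, Bach2 encodes a repressor that restrains effector genes, and Foxp1 and Foxo1 encode forkhead factors that maintain quiescence and survival. Id3 encodes an inhibitor of E proteins found in memory precursors, Satb1 a chromatin organiser of developing and resting T cells, and Klf3 a repressor of the Krüppel-like family, which binds CACCC elements.

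The sorted identity was checked first. Of 12 T cell identity and sort genes, 11 were measured, and the group means of Cd8a were 10.93 in the a-CD4 group, 10.92 in SD-101+anti-PD-1, 10.91 in SD-101 and 10.45 in Saline-CTRL. Cd4 had group means of 3.32, 3.08, 3.08 and 3.09 in the same order, below the lowest array median of 3.52. The mean log2 value of the 11 identity genes, called the T cell identity score, ranged from 8.72 to 10.40 in the a-CD4 group, 9.75 to 10.15 in SD-101+anti-PD-1, 9.47 to 10.22 in SD-101 and 9.04 to 10.25 in Saline-CTRL. Replicate 2 of the a-CD4 group had the lowest score and stood apart from the other arrays of its group. Markers of lung endothelium were also present: the mean of 14 such genes ranged from 6.59 to 7.90 in the a-CD4 group, 5.26 to 6.33 in SD-101+anti-PD-1, 7.06 to 9.52 in SD-101 and 7.95 to 9.95 in Saline-CTRL. Lung epithelial markers were present too. The mean of 9 such genes ranged from 9.56 to 10.06 in the a-CD4 group and 10.09 to 10.61 in SD-101+anti-PD-1. It ranged from 8.86 to 9.99 in SD-101 and 8.41 to 10.39 in Saline-CTRL. In each group these levels overlapped those of the T cell identity score. The lung epithelial gene Sftpc had means of 13.11 in the a-CD4 group and 13.08 in Saline-CTRL, above those of Cd8a. In these bulk samples, fewer cells of a type and less RNA per cell cannot be told apart.

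The group means of 6 of the 7 measured members, all but Id3, were lowest in the a-CD4 group, although that of Foxo1 differed little between groups. The share of all genes whose mean was lowest in that group was not counted. Against Saline-CTRL, 4 of the 7 measured members fell in the a-CD4 group (Lef1, Bach2, Foxp1 and Klf3), where 7.12% of all genes were called (4.09% rose and 3.03% fell). A gene was called, and "rose" or "fell" is written, when its adjusted p was under 0.05 by limma's moderated test with Benjamini-Hochberg adjustment over all 17097 genes. All 7 log2 fold changes were negative, with a median of -0.90 beside 0.037 over all genes. In SD-101+anti-PD-1 against Saline-CTRL, 2 members fell (Id3 and Klf3), where 5.63% of all genes were called and 2.15% fell. With 1 array left out, those calls were kept in 4 of 10 fits for Id3 and 2 of 10 for Klf3. In SD-101 alone no member was called, where only 0.333% of all genes were. Across the 4 groups together, limma's moderated F-test called Bach2 (adjusted p = 0.0105), Foxp1 (0.00312) and Klf3 (0.00232), where 8.85% of all genes were called.

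**Figure D1:**
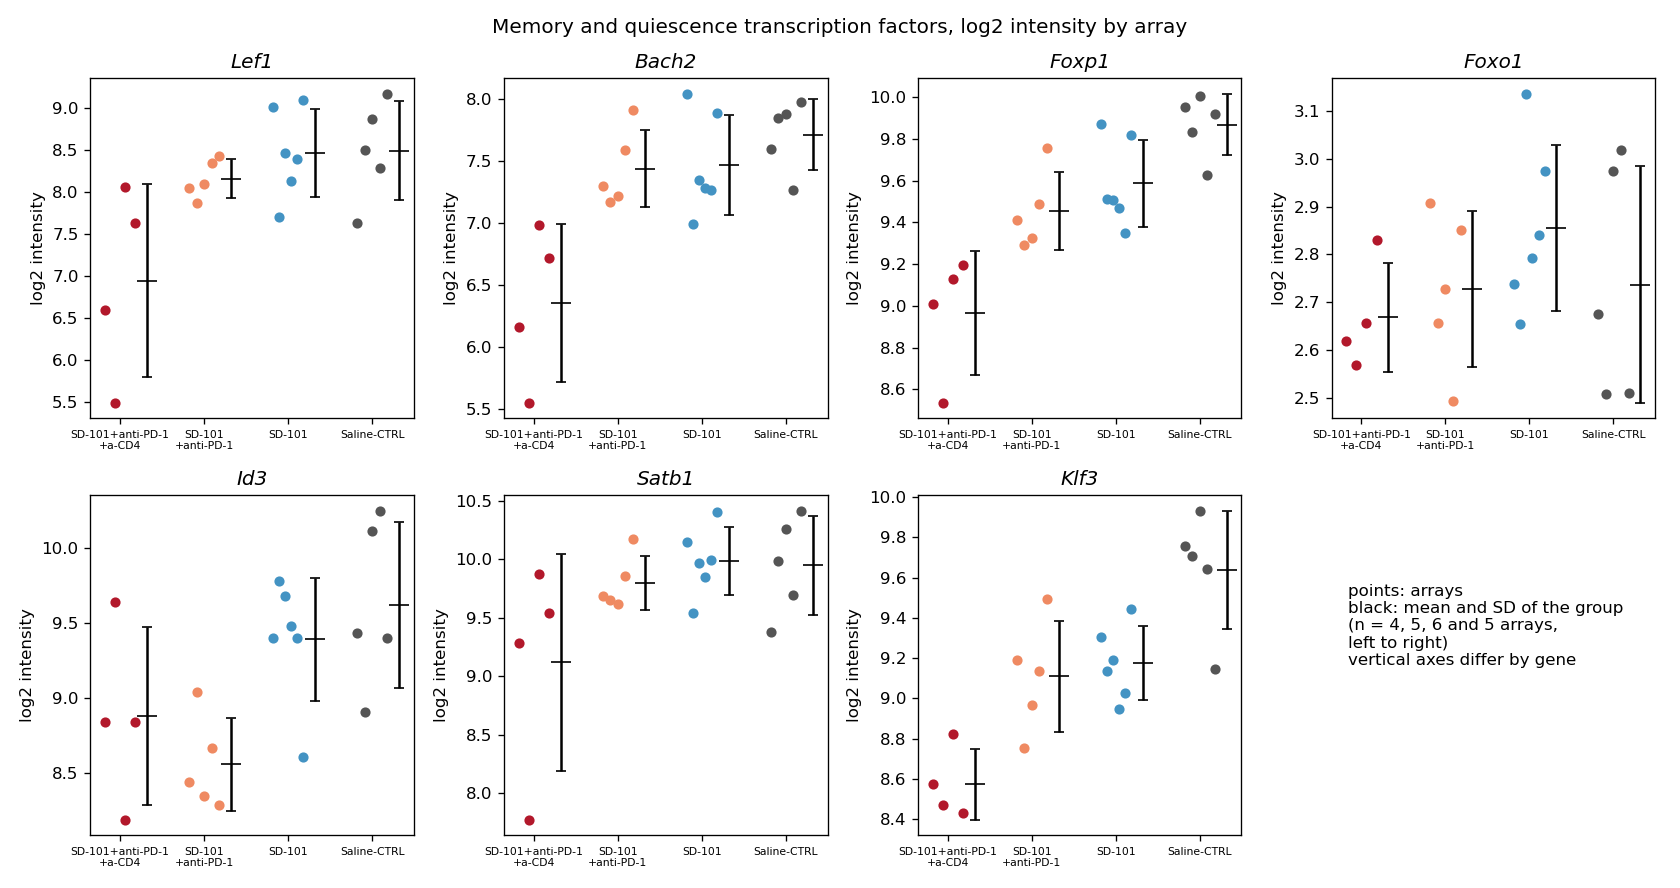
Log2 intensity of the 7 measured members on each of the 20 arrays, with the mean and SD of each group in black and a vertical axis of its own for each gene. For Bach2, Foxp1 and Klf3 all 4 arrays of the a-CD4 group lie below all 5 arrays of Saline-CTRL. The share of all genes that separate in this way was not counted. Foxo1 stays between 2.49 and 3.14 throughout.

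The promoters of the 4 members that fell together in the a-CD4 group are shown with that of Id3, which fell in SD-101+anti-PD-1, because Klf3 encodes a factor of CACCC elements and its own level was among those that fell. Each is the 250 bases before the most upstream listed start, read 5′ to 3′ on the gene's strand from RefSeq's promoter table (GRCm38.p6), with CACCC and its reverse complement GGGTG in capitals.
Lef1: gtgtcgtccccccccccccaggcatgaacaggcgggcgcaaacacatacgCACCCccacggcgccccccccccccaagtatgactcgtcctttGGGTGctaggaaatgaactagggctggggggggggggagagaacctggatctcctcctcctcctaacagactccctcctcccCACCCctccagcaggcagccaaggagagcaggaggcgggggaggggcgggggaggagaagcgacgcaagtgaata
Bach2: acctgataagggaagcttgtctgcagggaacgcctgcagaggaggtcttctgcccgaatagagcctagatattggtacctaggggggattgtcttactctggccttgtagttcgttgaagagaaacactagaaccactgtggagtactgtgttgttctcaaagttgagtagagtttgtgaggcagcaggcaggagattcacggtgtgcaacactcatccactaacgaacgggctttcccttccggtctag
Foxp1: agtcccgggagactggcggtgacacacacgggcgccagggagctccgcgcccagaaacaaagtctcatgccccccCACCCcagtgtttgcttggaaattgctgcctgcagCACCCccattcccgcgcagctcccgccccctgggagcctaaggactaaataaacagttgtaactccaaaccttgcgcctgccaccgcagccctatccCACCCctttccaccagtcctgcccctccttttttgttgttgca
Klf3: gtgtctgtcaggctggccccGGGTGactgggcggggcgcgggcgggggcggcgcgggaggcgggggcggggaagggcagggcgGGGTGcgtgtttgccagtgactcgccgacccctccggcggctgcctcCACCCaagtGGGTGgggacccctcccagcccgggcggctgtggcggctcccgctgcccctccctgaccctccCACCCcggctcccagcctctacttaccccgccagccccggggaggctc
Id3: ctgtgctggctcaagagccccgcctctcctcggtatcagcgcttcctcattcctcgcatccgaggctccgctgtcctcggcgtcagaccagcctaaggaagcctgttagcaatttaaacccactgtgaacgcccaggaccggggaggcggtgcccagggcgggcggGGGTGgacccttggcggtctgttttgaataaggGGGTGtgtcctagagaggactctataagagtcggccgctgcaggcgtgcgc
The windows lie at chr3:131110047-131110296 on the plus strand for Lef1, chr4:32417185-32417434 plus for Bach2, chr6:99520994-99521243 minus for Foxp1, chr5:64803271-64803520 plus for Klf3 and chr4:136143572-136143821 plus for Id3. On both strands, the Klf3 window held 5 copies of CACCC, those of Lef1 and Foxp1 held 3 each, that of Id3 held 2 and that of Bach2 held 0. Over all 16 windows of the 7 members, 12 held CACCC, a motif found in 52.0% of the 32817 windows of all genes. These 12 came from 5 of the 7 genes. The 16 windows include 5 of Satb1, 4 of Lef1 and 3 of Foxp1, and windows of 1 gene are not independent. The TCF/LEF core CTTTGA was in 3 of the 16, 1 each of Bach2, Foxp1 and Lef1, beside 13.8% of all windows. The E-box CANNTG, which E proteins bind, was in 11 of the 16, beside 66.2% of all windows. The forkhead element TGTTTAC and the element TGANTCA, bound by AP-1 and related to that of Bach2, were in 0 of the 16, beside 3.16% and 6.75% of all windows. No motif searched contains another. A match is a run of letters, not a bound site.

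Lef1 had log2 values of 6.59, 5.49, 8.06 and 7.63 on the 4 arrays of the a-CD4 group and 8.05, 7.87, 8.09, 8.35 and 8.43 on those of SD-101+anti-PD-1. It ranged from 7.71 to 9.09 in SD-101, with a median of 8.43. In Saline-CTRL it was at 7.63, 8.50, 8.86, 8.29 and 9.17. The first 2 arrays of the a-CD4 group were the lowest of all 20, and the other 2 lay within the range of the other groups. Lef1 fell by 1.54 on the log2 scale (SE 0.41) in the a-CD4 group against Saline-CTRL, to 0.343 times its level (adjusted p = 0.0288). Without replicate 2 of the a-CD4 group the fold change was -1.06 with adjusted p = 0.0943, and the call was kept in 5 of 9 fits that each left out 1 array. Against SD-101+anti-PD-1 the log2 fold change was -1.21, with adjusted p = 0.126.

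Bach2 had values of 6.16, 5.55, 6.98 and 6.72 in the a-CD4 group and of 7.30, 7.17, 7.21, 7.59 and 7.91 in SD-101+anti-PD-1. SD-101 arrays ranged from 6.99 to 8.04 with a median of 7.31. Saline-CTRL arrays were at 7.59, 7.84, 7.87, 7.26 and 7.97. All 4 arrays of the a-CD4 group lay below every array of the other 3 groups. Bach2 fell by 1.35 (SE 0.26) on the log2 scale in the a-CD4 group against Saline-CTRL (adjusted p = 0.00417), and all 9 fits with 1 array left out kept the call. It was the only member called in the a-CD4 group against SD-101+anti-PD-1, where it fell by 1.08 (SE 0.26, adjusted p = 0.0403). In that comparison 2.13% of all genes were called (0.948% rose and 1.18% fell). That second call was kept in 3 of 9 such fits, and without replicate 2 of the a-CD4 group the fold change was -0.82 with adjusted p = 0.158.

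Foxp1 had values of 9.01, 8.54, 9.13 and 9.20 in the a-CD4 group and of 9.41, 9.29, 9.32, 9.49 and 9.76 in SD-101+anti-PD-1. It ranged from 9.35 to 9.87 in SD-101 around a median of 9.51. Saline-CTRL arrays had 9.95, 9.84, 10.01, 9.63 and 9.92. The 4 values of the a-CD4 group were below all others, and 4 of the 5 values of SD-101+anti-PD-1 were below every Saline-CTRL array. Foxp1 fell by 0.90 (SE 0.14) in the a-CD4 group against Saline-CTRL (adjusted p = 0.00115) and was called in all 9 fits with 1 array left out. Its log2 fold change was -0.49 in the a-CD4 group against SD-101+anti-PD-1 (adjusted p = 0.0766) and -0.41 in SD-101+anti-PD-1 against Saline-CTRL (adjusted p = 0.0786), and neither passed the threshold.

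Klf3 had values of 8.57, 8.47, 8.82 and 8.43 in the a-CD4 group and of 9.19, 8.76, 8.97, 9.14 and 9.50 in SD-101+anti-PD-1. In SD-101 it ranged from 8.95 to 9.44 with a median of 9.17. Saline-CTRL arrays had 9.76, 9.71, 9.93, 9.64 and 9.15. The highest array of the a-CD4 group overlapped only the lowest of SD-101+anti-PD-1, and lay below all Saline-CTRL and SD-101 arrays. Klf3 fell by 1.06 (SE 0.16) in the a-CD4 group against Saline-CTRL (adjusted p = 7.9e-04), the smallest adjusted p of any member, and was called in all 9 fits with 1 array left out. It also fell by 0.53 (SE 0.15) in SD-101+anti-PD-1 against Saline-CTRL (adjusted p = 0.0414), where 5.63% of all genes were called (3.47% rose and 2.15% fell). This call was kept in 2 of 10 fits with 1 array left out, and adjusted p reached 0.13 without replicate 3 of Saline-CTRL.

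Id3 followed another order of group means, lowest in SD-101+anti-PD-1. Its values there were 8.44, 9.04, 8.35, 8.67 and 8.29, and in the a-CD4 group 8.84, 9.64, 8.19 and 8.84. SD-101 arrays ranged from 8.61 to 9.78 with a median of 9.44. Saline-CTRL arrays had 9.43, 8.91, 10.11, 10.25 and 9.40. In SD-101+anti-PD-1, 4 of 5 arrays lay below every Saline-CTRL array. Id3 fell by 1.06 (SE 0.28) in SD-101+anti-PD-1 against Saline-CTRL, to 0.479 times its level (adjusted p = 0.0296). The call was kept in 4 of 10 fits with 1 array left out, and adjusted p reached 0.0973 without replicate 3 of Saline-CTRL. Its log2 fold change was -0.83 in SD-101+anti-PD-1 against SD-101 (adjusted p = 0.0829), -0.74 in the a-CD4 group against Saline-CTRL (0.148) and 0.32 in the a-CD4 group against SD-101+anti-PD-1 (0.645).

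Satb1 and Foxo1 were called in none of the 5 comparisons when group means alone were fitted. Satb1 had values of 9.28, 7.77, 9.88 and 9.54 in the a-CD4 group and of 9.69, 9.65, 9.61, 9.86 and 10.17 in SD-101+anti-PD-1. It ranged from 9.54 to 10.40 in SD-101 (median 9.98), and was at 9.38, 9.98, 10.26, 9.70 and 10.41 in Saline-CTRL. Its lowest arrays were replicates 2 and 1 of the a-CD4 group, and the highest array of that group lay within the range of each other group. The log2 fold change of Satb1 was -0.83 in the a-CD4 group against Saline-CTRL (95% interval -1.49 to -0.17, adjusted p = 0.125). Foxo1 lay between 2.49 and 3.14 on all 20 arrays, below the median of each array, so that its probe set gave no level that could be set apart from the low end of the scale. Its fold changes ranged from -0.13 to 0.12 over the 5 comparisons.

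**Figure D2:**
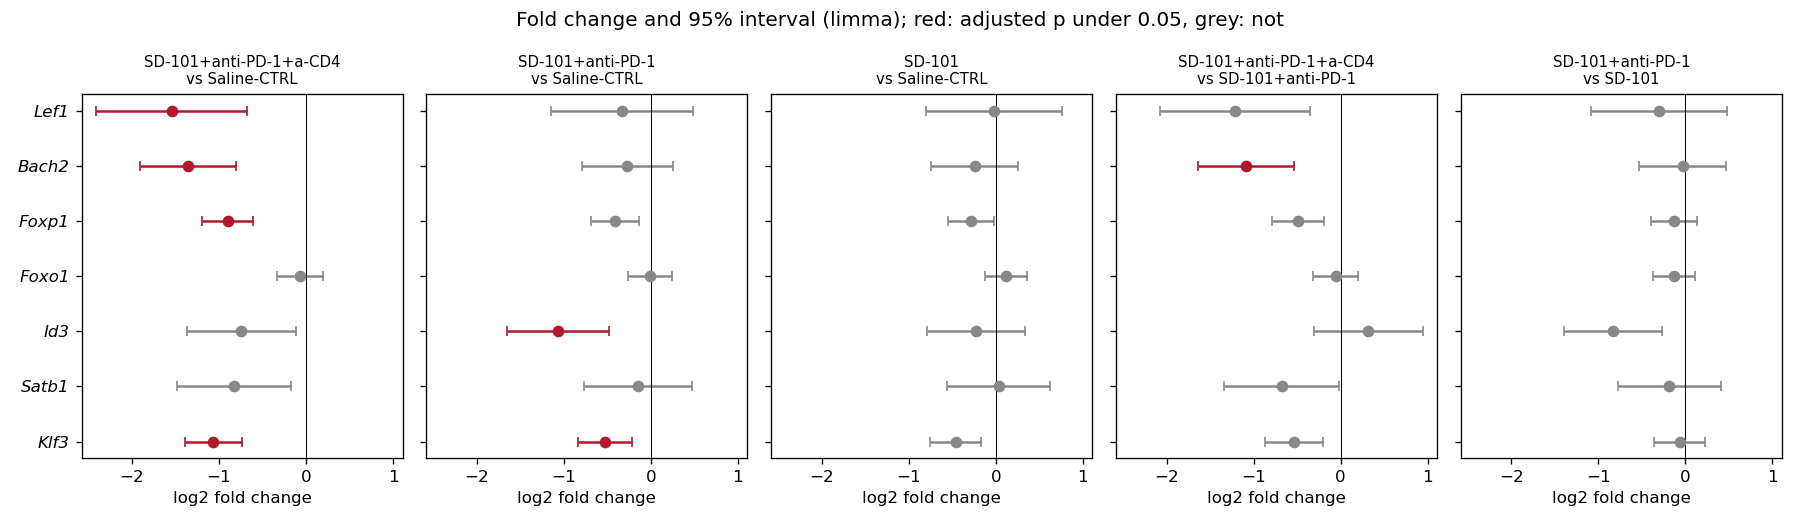
Log2 fold change with its 95% interval from limma for the 7 members in 5 comparisons, with called members in red and the others in grey. The 4 red points of the a-CD4 group against Saline-CTRL lie between -1.54 and -0.90, and no member is red in either comparison with SD-101.

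No member was called with SD-101 alone. Against Saline-CTRL the count was 0 of 7, where limma called 0.333% of all genes (0.298% rose and 0.0351% fell). There 2 members, Foxp1 (-0.28) and Klf3 (-0.46), had an unadjusted p under 0.05 (0.0399 and 0.00426). The interval of Lef1 ran from -0.81 to 0.76, and that of Bach2 from -0.74 to 0.26. The median of the members was -0.23, beside 0.012 over all genes. In SD-101+anti-PD-1 against SD-101, 0 of 7 members were called, where 4.77% of all genes were called (3.52% rose and 1.25% fell), and Id3 alone had an unadjusted p under 0.05 (0.00593). The members' median there was -0.13, beside 0.0080 over all genes. The 5 comparisons share groups with each other, the 3 against Saline-CTRL its 5 arrays, so their values are not independent.

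Most probe sets of the members ran the same way as the one chosen. The 7 members had 22 probe sets with a single symbol, 7 for Foxp1, 6 for Klf3, 3 each for Bach2 and Satb1, and 1 each for Lef1, Foxo1 and Id3. Tested among 28898 probe sets, all 22 had a negative fold change in the a-CD4 group against Saline-CTRL and 13 fell, where 5.87% of all probe sets were called and 2.57% fell. All 7 probe sets of Foxp1 fell, with log2 fold changes from -1.62 to -0.76, and 4 of the 6 of Klf3 fell. For Bach2, 1 of 3 was called: the 2 dimmer ones had -1.04 (adjusted p = 0.057) and -0.22 (0.649). In SD-101+anti-PD-1 against Saline-CTRL 5 of the 22 fell, 3 of Klf3 and 1 each of Id3 and Foxp1, where 4.37% of all were called. In the a-CD4 group against SD-101+anti-PD-1 3 fell, 2 of Foxp1 and 1 of Bach2, where 1.29% of all were called. Probe sets of 1 gene share their transcript and are not replicates.

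**Figure D3:**
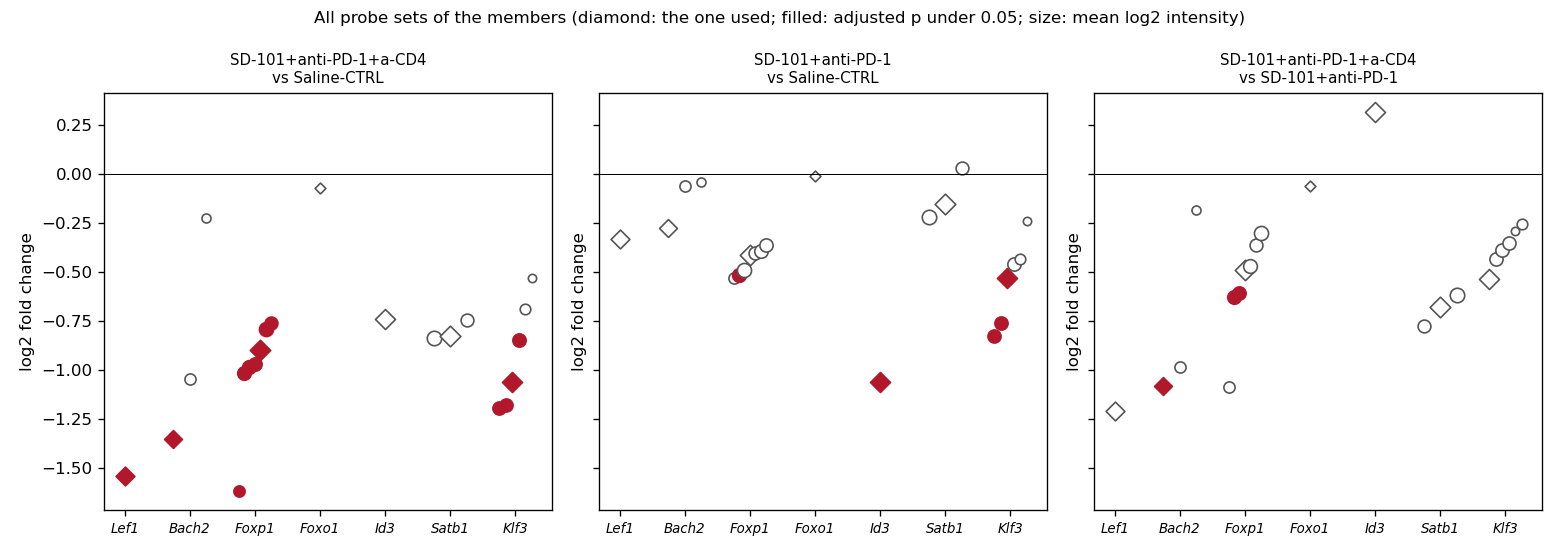
Log2 fold change of all 22 probe sets of the members in 3 comparisons, with diamonds for the probe set used, filled marks for an adjusted p under 0.05 and the mark's size for mean log2 intensity. All marks lie below 0 in the a-CD4 group against Saline-CTRL, and the filled ones number 13.

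The other genes of the pathway were read from 7 lists. Over all genes, 4.09% rose and 3.03% fell in the a-CD4 group against Saline-CTRL. In the a-CD4 group against Saline-CTRL, 6 of 13 antiproliferative and quiescence genes fell and 0 rose. They were Klf4 (-1.84), Klf2 (-1.51), a factor that keeps T cells quiescent and drives S1pr1, Btg2 (-1.29) and Tob1 (-1.13), both antiproliferative proteins, Tsc22d3 (-1.19), a glucocorticoid-induced gene, and Vsir (-0.91), which encodes the checkpoint protein VISTA. Adjusted p for these ranged from 0.00151 to 0.0288, and the list's median was -0.62. With 1 array left out, Vsir kept its call in 5 of 9 fits and the other 5 genes in all 9. Of 11 genes of the FOXO and PI3K-AKT pathway 3 fell: Sesn1 (-1.24), Sgk1 (-0.72) and Txnip (-0.72), with the call of Sgk1 kept in 3 of 9 such fits. Of 9 surface and survival genes of memory and naive T cells 2 fell, S1pr1 (-1.44), the receptor for exit from tissue, and Il6ra, a receptor subunit for interleukin 6, with means of 7.13 in the a-CD4 group and 8.13 in Saline-CTRL. Of 10 other factors of naive and memory T cells only Klf2, already counted in the quiescence list, was called. Of 11 TCF/LEF partners and Wnt pathway genes and 5 E proteins and other Id proteins 0 were called (2 and 2 had an unadjusted p under 0.05).

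Of 13 effector and exhaustion transcription factors 2 rose in the a-CD4 group against Saline-CTRL, where 4.09% of all genes rose. They were Tbx21 (1.67, adjusted p = 0.00607), which encodes the effector factor T-bet, and Hif1a (0.52, adjusted p = 0.00932). Of this list 0 fell and 11 were not called, and its median was 0.18. In SD-101+anti-PD-1 against Saline-CTRL, Tbx21 also rose (1.36, adjusted p = 0.0173), and in the quiescence list Klf4 (-2.18), Tsc22d3 (-0.998) and Klf2 (-0.97) fell and Foxp4 (0.76) rose. In that comparison Sgk1 (-1.03), Sesn1 (-0.69) and S1pr1 (-1.33) fell as well. With 1 array left out, Klf4, Sgk1 and S1pr1 kept their calls in all 10 fits, Tsc22d3 in 9, Tbx21 in 8, Klf2 in 7, Foxp4 in 6 and Sesn1 in 3. Id1, which encodes a relative of Id3, fell by 1.69 (adjusted p = 0.0269), the only call among 5 E proteins and other Id proteins, and the call was kept in 5 of 10 such fits. In SD-101+anti-PD-1 against SD-101, Klf4 (-1.54), Klf2 (-0.88), Sgk1 (-1.08) and S1pr1 (-0.89) fell and Tcf7l1 (0.83), a relative of Lef1, rose. The calls of Klf2 and S1pr1 there were kept in 3 of 11 fits with 1 array left out, and those of the other 3 genes in all 11. None of the 7 lists had a called gene in SD-101 against Saline-CTRL or in the a-CD4 group against SD-101+anti-PD-1, where 57 and 364 genes in all were called. Counted once each, 8 and 13 of the 69 measured genes of these lists had an unadjusted p under 0.05 there. As background, Klf2 and Klf4 are also transcribed in endothelium.

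Markers of other cells moved with some of these differences. Endothelial markers fell in both antibody groups against Saline-CTRL, 12 of 14 in the a-CD4 group (median -2.15) and 13 of 14 in SD-101+anti-PD-1 (median -3.59), and the ranges of the endothelial score did not overlap with Saline-CTRL in either. All 14 had a mean above the highest array median. With this score as a covariate, limma called 54 genes in the a-CD4 group against Saline-CTRL in place of 1218, and 0 in SD-101+anti-PD-1 against Saline-CTRL in place of 962. Klf3 kept its call in the first, at -1.12 (adjusted p = 0.0486), and Lef1, Bach2 and Foxp1 had -1.88, -1.63 and -0.95 with adjusted p of 0.195, 0.0875 and 0.0697. The fold change of Id3 in SD-101+anti-PD-1 against Saline-CTRL turned to 0.27 (adjusted p = 0.96). The quiescence list then had 1 called gene in the a-CD4 group against Saline-CTRL in place of 6. Since the score separates these groups from Saline-CTRL, treatment and endothelial signal cannot be told apart there.

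Other scores were tried in the same way. With the T cell identity score as a covariate, limma called 2793 of all 17097 genes in the a-CD4 group against Saline-CTRL, in place of 1218. In that fit 5 members were called: Lef1 at -1.78 (adjusted p = 5.18e-05), Bach2 at -1.48 (1.02e-04), Foxp1 at -0.95 (1.02e-04), Satb1 at -1.02 (4.63e-05) and Klf3 at -1.07 (3.19e-04). With the heat shock and dissociation stress score, whose genes Fos, Jun and Egr1 fell in both antibody groups against Saline-CTRL, the same comparison kept the calls of Lef1 (-1.78), Bach2 (-1.70), Foxp1 (-1.08) and Klf3 (-1.17). The share of all called genes that kept theirs with the stress score was not counted. With endothelial, lung epithelial, macrophage and B cell scores together, 0 members were called in any comparison, and limma called 1 gene of all 17097 in the a-CD4 group against Saline-CTRL. The fold change of Klf3 there was -1.11, with adjusted p = 0.164.

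Neutrophil markers were high on single arrays. The mean of 4 such genes (S100a8, S100a9, Csf3r and Cxcr2) was 9.15, 6.76, 4.29 and 6.54 on the arrays of the a-CD4 group, 3.27 to 6.97 in SD-101+anti-PD-1 and 3.76 to 6.29 in SD-101. In Saline-CTRL it was 10.06 on replicate 1 and 3.10 to 3.34 on the other 4 arrays. On the 4 arrays of the a-CD4 group, in the order above, Lef1 was at 6.59, 5.49, 8.06 and 7.63. Its relation to the neutrophil score within that group was not tested. None of the 4 markers was called in any comparison. Their median was 2.05 in the a-CD4 group against Saline-CTRL, where S100a9 alone had an unadjusted p under 0.05 (0.0417). With this score as a covariate, chosen after seeing the data, Bach2 (-1.16, adjusted p = 0.0151), Foxp1 (-0.86, 0.00415) and Klf3 (-1.02, 0.00313) kept their calls in the a-CD4 group against Saline-CTRL, and Lef1 had -1.12 with adjusted p = 0.0837. Against SD-101+anti-PD-1, Bach2 then had -0.90 with adjusted p = 0.0962. The share of all called genes that kept their calls with the neutrophil score was not counted.

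Ciliated cell markers were high in SD-101+anti-PD-1. Their scores were 3.87 to 4.63 in the a-CD4 group, 5.08 to 6.00 in SD-101+anti-PD-1, 3.93 to 4.81 in SD-101 and 3.96 to 4.47 in Saline-CTRL. In the a-CD4 group against SD-101+anti-PD-1 5 of 5 fell, and in SD-101+anti-PD-1 against Saline-CTRL 4 of 5 rose, among them Foxj1 (2.36, adjusted p = 1.78e-04). With this score as a covariate, also chosen after seeing the data, the 4 members called in the a-CD4 group against Saline-CTRL kept their calls. The share of all called genes that kept theirs in this fit was not counted. In the same fit limma called 0 genes of all 17097 in either comparison with SD-101+anti-PD-1 named here. Bach2 had -0.56 in the a-CD4 group against SD-101+anti-PD-1, and Id3 and Klf3 had -0.46 and -0.84 in SD-101+anti-PD-1 against Saline-CTRL. Since the score separates SD-101+anti-PD-1 from the other groups, treatment and ciliated cell signal cannot be told apart there.

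Other marker lists had calls in the same comparisons. Among 7 markers of CD4+ and regulatory T cells, Tnfrsf4 (1.31, adjusted p = 0.0135) and Foxp3 (0.59, adjusted p = 0.0156) rose in the a-CD4 group against Saline-CTRL, and Foxp3 rose against SD-101+anti-PD-1 (0.63, adjusted p = 0.0265). The mean of Foxp3 over all arrays was below the highest array median. Of 5 NK cell markers only Klrk1, an activating receptor of NK and CD8+ T cells, was called in both antibody groups against Saline-CTRL. It rose by 1.72 in the a-CD4 group and 1.49 in SD-101+anti-PD-1, where the list's medians were 2.2e-04 and 0.15. Of 5 mast cell markers only Kit, a mast cell receptor, was called there. It fell in both (-1.69 and -1.76), with list medians of -0.064 and -0.42. Of 7 fibroblast markers, Col1a1 rose (1.80) and Lum fell (-1.44) in the a-CD4 group against Saline-CTRL, and Lum fell (-1.40) against SD-101+anti-PD-1. In SD-101+anti-PD-1 against Saline-CTRL, Col1a1 (2.29), Col3a1 (1.24) and Col1a2 (0.48) rose, as did Jchain (2.85) and Ighm (2.76), genes of antibody-secreting cells, and Fcer2a (1.69), 1 of 9 B cell markers. B cell scores were 3.35 to 4.14 in the a-CD4 group and 3.75 to 4.13 in Saline-CTRL, where 0 of 9 were called, with Ms4a1, Cd79a, Pax5, Cr2 and Ebf1 at means below the highest array median. The part of the genes of this paragraph in the falls of the members was not tested.

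**Figure D4:**
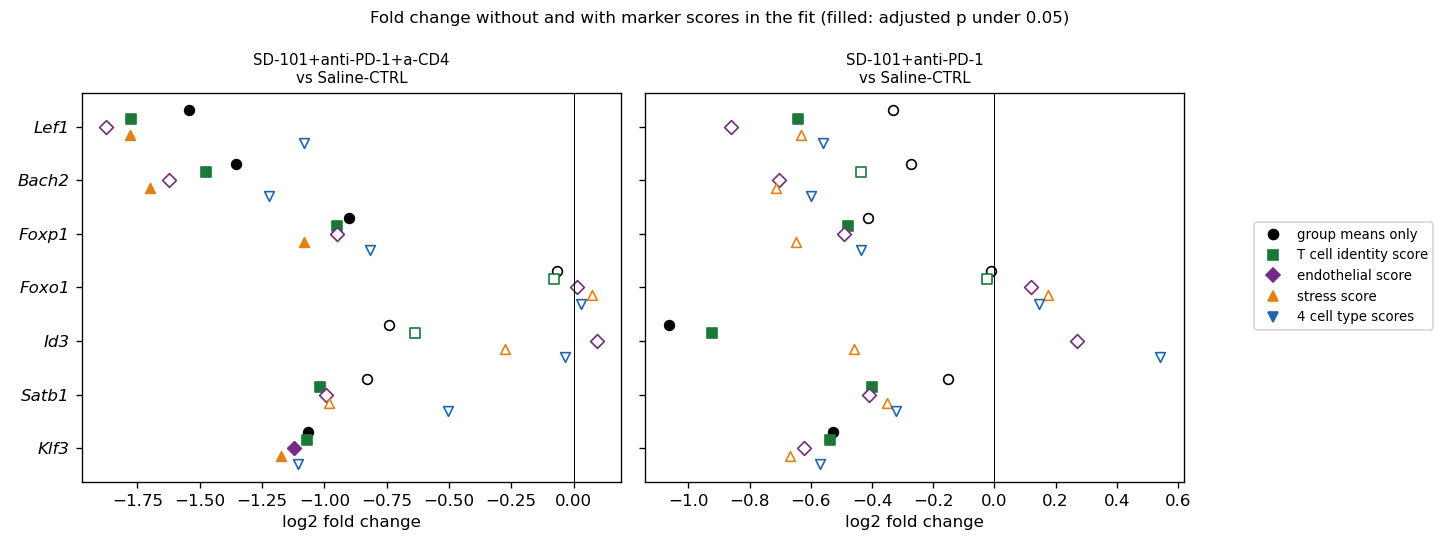
Log2 fold change of each member against Saline-CTRL in the a-CD4 group (left) and SD-101+anti-PD-1 (right), fitted with group means only and with marker scores as covariates, with filled marks for an adjusted p under 0.05. Lef1, Bach2, Foxp1 and Klf3 stay below -0.80 on the left under every fit shown, while Id3 lies on both sides of 0 in both panels.

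Some of the members also varied together among arrays of the same group. Over the 20 arrays, as deviations from group means, 16 of 21 pairs of members correlated positively, and 8 pairs had an adjusted p under 0.05 in a permutation test within groups. How often other pairs of genes do so on these arrays was not counted. Id3 had a negative r with each other member except Foxo1, and no pair with Foxo1 was among the 8. Genes outside the members also ran close to them within groups, such as Scg5 with Lef1 (r = 0.985) and Dgka with Satb1 (r = 0.984). Lef1 and Satb1 had Pearson r = 0.94 (Spearman rho = 0.90, adjusted permutation p = 1.4e-04), and r = 0.91 without the 2 arrays farthest from the median of Lef1. Bach2 and Foxp1 had r = 0.90 (rho = 0.90, adjusted permutation p = 3.67e-04, 0.90 without the 2 farthest arrays). Bach2 and Id3 ran opposite ways, with r = -0.68 (rho = -0.60, adjusted permutation p = 0.0108, -0.68 without the 2 farthest arrays). Klf3 correlated with Foxp1 at r = 0.53 (rho = 0.64, adjusted permutation p = 0.0419, 0.47 without the 2 farthest arrays).

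The T cell identity score moved with several of them on the same arrays. It correlated with Satb1 at r = 0.96 (rho = 0.90, adjusted permutation p = 3.5e-05) and with Lef1 at r = 0.89 (rho = 0.77, adjusted permutation p = 3.5e-05), and without the 2 farthest arrays r was 0.89 and 0.79. For Bach2 r was 0.74 (rho = 0.65, adjusted permutation p = 0.00168, 0.70 without them), and for Klf3 it was 0.068 (rho = 0.095, adjusted permutation p = 0.766). The endothelial score correlated with Id3 at r = 0.63 (rho = 0.53, adjusted permutation p = 0.049) and at r = 0.37 without the 2 farthest arrays, while adjusted permutation p was 0.217 for rho. Each score was set against 7 members and p adjusted over the 7. The part of the T cell identity score in the pairs of members was not tested.

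**Figure D5:**
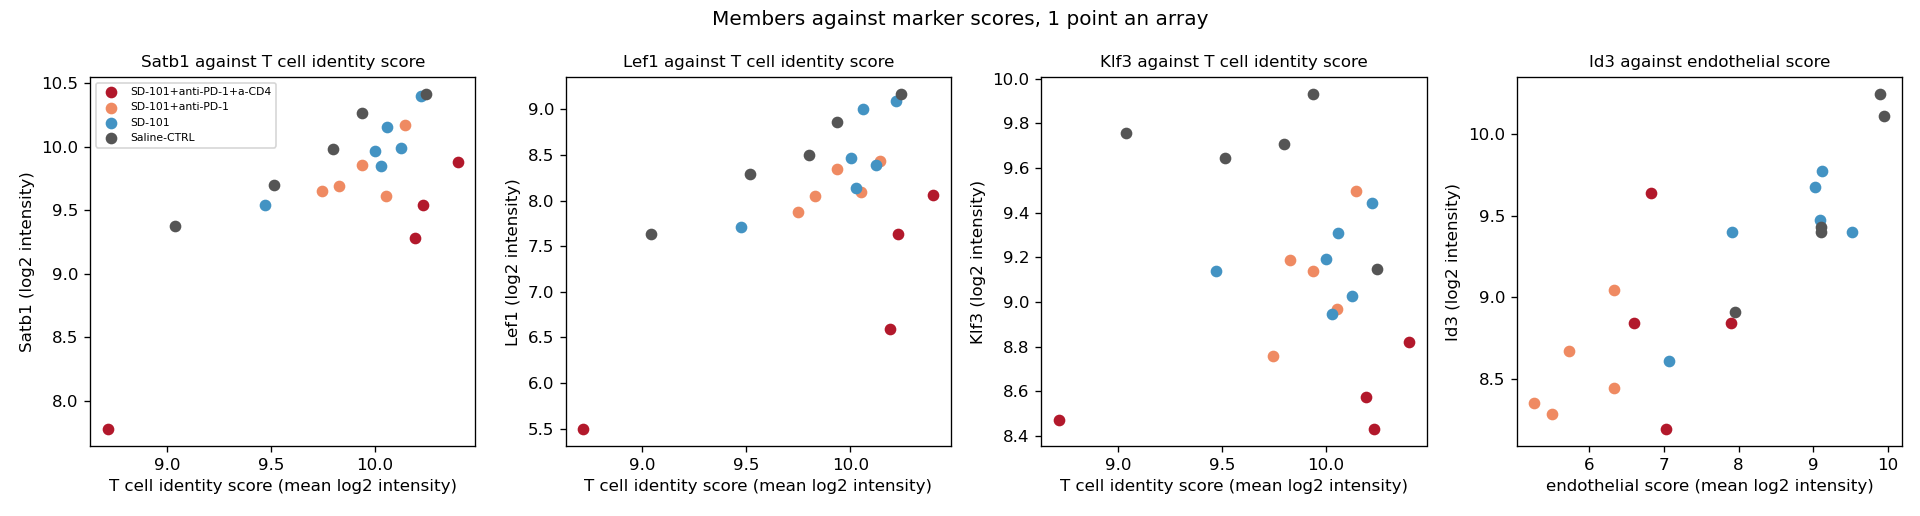
Log2 intensity of Satb1, Lef1 and Klf3 against the T cell identity score, and of Id3 against the endothelial score, with 1 point for each of the 20 arrays coloured by group. Replicate 2 of the a-CD4 group is the leftmost point of the first 3 panels, at a score of 8.72, where Klf3 lies within the range of the other 3 arrays of its group.

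The genes whose log2 values ran most like each member over the 20 arrays were taken from 15408 candidates by Pearson r, as a description. For Lef1 they were Scg5 (0.99), Pde2a (0.97) and Klhdc1 (0.97), and for Satb1 Dgka (0.98), Rasgrp1 (0.98) and Evl (0.97). Cmah (0.96), Zscan26 (0.95) and Tdrp (0.94) were closest to Bach2, and Zscan26 (0.96), Nr3c1 (0.94) and Sh3bp5 (0.92) to Foxp1. Ttc28 (0.88), Zbtb4 (0.87) and Cytl1 (0.84) were closest to Klf3. Id3 was closest to Trim35 (0.94), Pxdn (0.94) and Ahr (0.93), and Foxo1, near the low end of the scale, to Pla2g4e (0.77), Gadd45g (0.70) and Mafk (0.70). The arrays of a pair are shared, so group differences and the makeup of each sample enter every r.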

How the data were processed

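RNA of CD44+CD8+ T cells was measured on 20 Affymetrix arrays. Expression values were deposited by the authors on a log2 scale for each probe set, and affy, RMA, limma and the build mm8 are named, without versions or roles, per the submitters' processing notes. Array medians were 3.52 to 3.75, and the values were used without further scaling. Of 45141 probe sets, 28898 were listed with 1 gene symbol, 551 with several and 15692, including 104 controls, with none. For genes with several probe sets, 7180 in number, that of the highest mean was used, with no filter on level. Members' promoter sequences came from RefSeq's table and were matched by symbol for 7 genes.

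All 4 groups were fitted in limma 3.58.1 (R 4.3.3) by group means alone, and p was adjusted over all genes. The fit was tested on simulated data. Correlations used deviations from group means and 100000 permutations within groups. Genes named were the members, up to 4 called genes of smallest p per list and comparison (all 6 in the quiescence list of the a-CD4 group against Saline-CTRL, the last 2 added after their values were seen), and the 3 most alike genes of each member. The members and gene lists were chosen with earlier results of these data known. Alternatives changed the probe sets, scaling, level filter, variance model, array weights, groups fitted, replicate block, single arrays and marker scores as covariates; leaving out both arrays of lowest T cell identity score and the neutrophil and ciliated cell scores were chosen after seeing the data, as were the marker genes named.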

Additional observations from a re-analysis of the deposited data

Results flagged for a closer look

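In groups of 4 to 10 arrays, the lowest or highest array was set against its neighbour by Dixon's criterion, which chance meets in about 1 of 20 groups. Of 88 groups tested, over 7 members and 15 marker scores, 5 met it. Id3 in SD-101 was at 8.61 on replicate 6, below the other 5 arrays by 0.679 of the group's range. The T cell identity score was at 9.47 on replicate 2 of SD-101, a gap of 0.707 of the range, and at 8.72 on replicate 2 of the a-CD4 group, a gap of 0.876. On that array of the a-CD4 group Lef1 (5.49), Bach2 (5.55), Foxp1 (8.54) and Satb1 (7.77) had the lowest values of all 20 arrays. Without replicate 6 of SD-101, Id3 fell in SD-101+anti-PD-1 against SD-101 by 0.99 on the log2 scale (limma, adjusted p = 0.039). In Saline-CTRL, the neutrophil marker score was at 10.06 on replicate 1, above the other 4 arrays by 0.966 of the range, and the dendritic cell marker score was at 3.05 on replicate 2, a gap of 0.809. Without replicate 1 of Saline-CTRL, Klf3 had -0.50 in SD-101+anti-PD-1 against Saline-CTRL, with adjusted p = 0.0731 by limma.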

How the results depend on the processing

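Of 905 member values under other settings, 791 kept direction and side of the threshold, 51 lost the call, 17 gained it, 2 reversed and 44 without a call moved; except where a setting's construction shows it, the cause was not tested. The reversals were Id3 in SD-101+anti-PD-1 against Saline-CTRL, at 0.27 with the endothelial score and 0.54 with the 4 cell type scores. Leaving out single arrays gave 0 to 0 members called in SD-101 against Saline-CTRL, 0 to 2 in SD-101+anti-PD-1 against Saline-CTRL, 3 to 4 in the a-CD4 group against Saline-CTRL, 0 to 1 in SD-101+anti-PD-1 against SD-101, 0 to 2 in the a-CD4 group against SD-101+anti-PD-1 and 3 to 4 by the F-test. The count for the a-CD4 group against Saline-CTRL (4) became 1 with the endothelial score and 0 with the 4 scores. That for SD-101+anti-PD-1 against Saline-CTRL (2) became 0 with the endothelial, stress or 4 cell type scores, 1 with only the 2 groups, and 5 with the T cell identity score. That for SD-101+anti-PD-1 against SD-101 (0) became 1 with array weights, with only the 2 groups, and with the T cell identity score. That for the a-CD4 group against SD-101+anti-PD-1 (1) became 0 with probe sets averaged, only the 2 groups, and the endothelial, stress or 4 cell type scores, 2 with every probe set or array weights, and 4 with the T cell identity score. The F-test count (3) became 5 with the level filter (9620 genes, 6 members) or array weights, 6 with the T cell identity score and 0 with the 4 scores. Chosen after seeing the data, leaving out both arrays of lowest T cell identity score gave 1 in SD-101+anti-PD-1 against Saline-CTRL and 0 in the a-CD4 group against SD-101+anti-PD-1, where the neutrophil or ciliated cell score also gave 0, and the ciliated cell score gave 0 in SD-101+anti-PD-1 against Saline-CTRL. Counts over all genes also moved by over 1.5 times. The 57 in SD-101 against Saline-CTRL became 119 with array weights, 10 with only the 2 groups and 5 with the 4 scores. The 962 in SD-101+anti-PD-1 against Saline-CTRL became 1953 with array weights, 0, 1505 and 45 with the endothelial, T cell identity and stress scores and 1 with the 4 scores, and 0 with the ciliated cell score. The 1218 in the a-CD4 group against Saline-CTRL became 476 with only the 2 groups, 54 and 2793 with the endothelial and T cell identity scores and 1 with the 4. The 816 in SD-101+anti-PD-1 against SD-101 became 2760 with array weights, 1332 with only the 2 groups, 0 and 3 with the endothelial and stress scores, 0 with the 4 and 0 with the ciliated cell score. The 364 in the a-CD4 group against SD-101+anti-PD-1 became 239 with the level filter, 1246 with array weights, 135 and 963 with the endothelial and T cell identity scores, 0 with the 4, 133 and 0 with the neutrophil and ciliated cell scores and 62 without both arrays named above. The 1513 of the F-test became 3784 with array weights, 326, 3115 and 1000 with the endothelial, T cell identity and stress scores, 24 with the 4 and 689 with the ciliated cell score. Leaving out single arrays gave all-gene counts of 25 to 64, 553 to 1531, 665 to 1234, 317 to 1081, 73 to 488 and 987 to 1856 in the same order; 25 came without replicate 5 of SD-101, 553 and 665 without replicate 3 and 1531 without replicate 2 of Saline-CTRL, 317 and 987 without replicate 4 of SD-101+anti-PD-1, and 73 without replicate 2 of the a-CD4 group.

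With the replicate number as a block, 1 member was called in SD-101+anti-PD-1 against Saline-CTRL (Klf3 had adjusted p = 0.0533) and 0 in the a-CD4 group against SD-101+anti-PD-1 (Bach2, 0.0667), and 242 genes in all in that comparison. The labels do not say whether a shared number pairs arrays, and correlations over all genes cannot settle it. Of 27 same-numbered pairs, 9 correlated above 0.1 (r from -0.39 to 0.51, median 0.013), and 4 arrays correlated best with their own number.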
